A study of Mus musculus with 6 samples.

Results

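Cluster 7 of the NG2 line held the cells that the study named radial glial precursors (RGPs) and that were nearly all found after injury. The 514 cells described here carried the deposited cluster number 7 and came from the physical injury library (76 cells) or the ischemic injury library (438 cells) of that line. They are 514 of 17033 cells in the whole series and of 10455 cells in the 3 libraries of the NG2 line, and 17 cells of the same cluster in the naïve library were left out. The cluster number came from the authors' joint clustering of the 3 NG2 libraries, so the genes that set cluster 7 apart from other clusters are a description of that clustering and not a test of it.

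All mice carried NG2-CreERT2 and the Ai14-flx reporter, were 3 to 4 months old and received tamoxifen 7 days before surgery. The Cspg4 promoter drove the Cre, and the NG2 protein that this gene encodes is made by pericytes and by oligodendrocyte precursor cells (OPCs), so the label alone does not tell these cells apart. Physical injury was an intracerebral saline injection, and ischemic injury was an injection of endothelin-1 with L-NAME (ET-1/L-NAME), a constrictor peptide and a blocker of nitric oxide synthesis. The cortex was taken 3 days later, cortices of several male and female mice were pooled, and tdT+/DAPI- cells were sorted into 1 droplet library per condition.

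Radial glia are the stem cells that line the ventricles of the embryonic brain and produce neurons and then glia. They contain the fatty acid binding protein Fabp7, the intermediate filaments vimentin and nestin, and the transcription factors Sox2 and Pax6. OPCs are the dividing glial precursors of the adult cortex, marked by the growth factor receptor Pdgfra and the transcription factors Olig1, Olig2 and Sox10. They share Fabp7, Sox2 and the phosphatase Ptprz1 with radial glia, so these shared genes cannot separate the classes.

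With 1 pooled library per condition there was no replicate. No test between conditions was made, and injury cannot be told apart from the animals, the sort, the library or its depth. Values are unique molecular identifiers (UMIs) summed over cells and given as counts per 1000000 UMIs (CPM), with 95% exact Poisson intervals in parentheses, and exact Clopper-Pearson intervals at 95% follow shares of cells. Both cover counting error only. A log2 ratio was taken after adding 1 CPM to each value. Where an interval follows a log2 ratio in square brackets it is the exact interval of the plain ratio, without that addition.

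Cluster 7 made up 2.97% (2.34 to 3.70) of 2563 sorted cells after physical injury and 12.2% (11.2 to 13.3) of 3586 after ischemic injury. The sort set which cells could enter either share. With 1 pooled library per condition these intervals cover the counting of cells and do not compare the conditions. No cell barcode was shared between the cluster 7 cells of both conditions, and 3 were shared among all cells of both libraries.

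The cells differed in depth. The physical injury cells held 970053 UMIs in all, with a median of 12792 per cell and a range of 503 to 38366. The ischemic injury cells held 15153721 UMIs, with a median of 37572.5 and a range of 478 to 66157. Median genes per cell were 4023.5 and 7080.5. Cluster 6, which the study named OPCs, had medians of 12390 and 11764.5 UMIs in the same libraries, so the difference in depth was not shared by that cluster. The shallow cells were a larger part of the physical injury group, where 29 of 76 cells had fewer than 2000 UMIs, against 38 of 438 after ischemic injury.

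Some of the shallow cells did not carry the transcripts of a glial cell. In the physical injury library 23 of 76 cells had no UMI of 10 glial genes (Fabp7, Pdgfra, Olig1, Olig2, Sox10, Ptprz1, Lhfpl3, Sox2, Cspg5 and Bcan). Of these, 21 were among the 29 cells under 2000 UMIs, and 20 had UMIs of a list of 22 red blood cell and myeloid genes. That list reached at least 1% of UMIs in 12 physical injury cells, and in the highest it was 186 of 668 UMIs (27.8%). In the rest of the library 6 of 2487 cells (0.241%) reached 1%, and no cell of cluster 6 did. In the ischemic injury library 1 cell of cluster 7 had 15369 hemoglobin UMIs out of 15989 (96.1%). Cells without a glial UMI or with at least 1% blood gene UMIs numbered 24 after physical and 2 after ischemic injury, and they held 4.42% and 0.109% of the UMIs of cluster 7. Without them the shares of the libraries were 2.03% and 12.2%. Values of named genes that moved most with these cells are given with and without them.

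**Figure D1:**
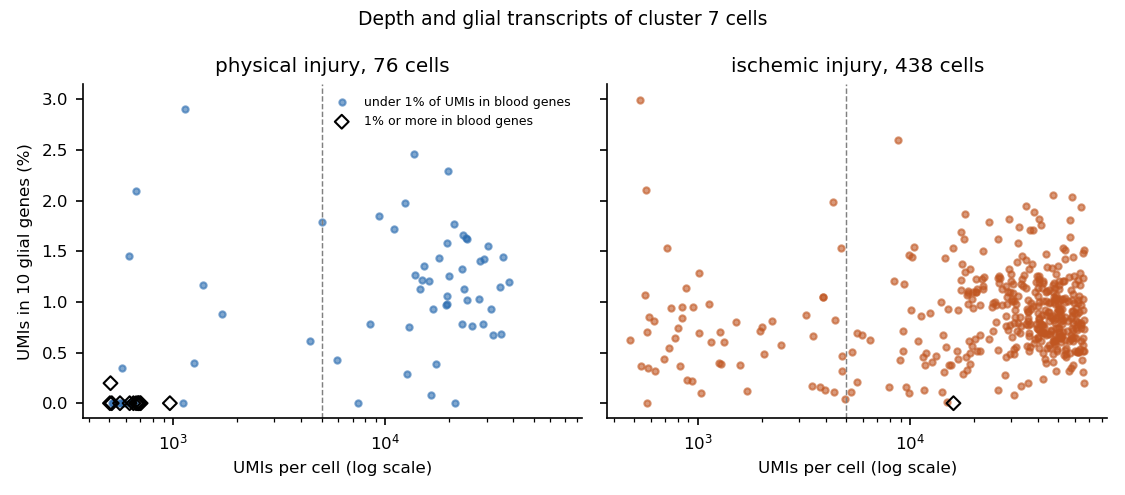
UMIs per cell (log scale) against the percent of those UMIs that came from the 10 glial genes, for each cluster 7 cell of both libraries. Diamonds are cells with at least 1% of UMIs from the 22 blood genes, and the dashed line is at 5000 UMIs, the depth to which cells were thinned. The cells with no glial UMI lie mostly below 2000 UMIs in the physical injury library.

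The 6 genes given as markers of these cells were all detected. Fabp7 stood at 2071 CPM (1981 to 2164) after physical and 3157 CPM (3129 to 3186) after ischemic injury, against 576 and 689 CPM in the OPCs of cluster 6. Dbi, an acyl-CoA binding protein, stood at 2846 and 3456 CPM, against 1415 and 1560 in cluster 6. Both genes were present at lower levels in cluster 6, in either library. Aldh1a3, which makes retinoic acid, separated the clusters further, with 75.3 and 155 CPM in cluster 7 and 0.528 and 10.9 CPM in cluster 6. Igfbp2, a binding protein of insulin-like growth factors, stood at 88.7 and 127 CPM against 9.25 and 10.9. Top2a, the topoisomerase of dividing cells, stood at 159 and 266 CPM against 4.49 and 47.1. Sox2 did not separate the clusters, with 313 and 320 CPM in cluster 7 and 282 and 287 CPM in cluster 6, which is a log2 ratio of 0.15 [-0.03 to 0.34] after physical and 0.16 [0.07 to 0.26] after ischemic injury.

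Detection per cell was compared after thinning every cell to 5000 UMIs, which left 46 of 76 physical and 383 of 438 ischemic injury cells. Fabp7 was found in 93.5% and 97.7% of them, against 80.3% and 81.9% of cluster 6, and in 2.75% and 6.96% of the mature oligodendrocytes of cluster 4, which should lack it. It was also found in 9.80% and 20.5% of the pericytes of cluster 1 and in 1.43% and 13.1% of the endothelial cells of cluster 5. Aldh1a3 was found in 15.2% and 44.6%, against 0 of 234 cells (upper limit 1.56%) and 3.62% of cluster 6. Igfbp2 was found in 34.8% and 31.9%, and Top2a in 26.1% and 44.9%. Fabp7 was thus near general in cluster 7, whereas Aldh1a3, Igfbp2 and Top2a were found in a minority of cells at this depth.

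Radial glia genes beyond these markers were uneven. Vim, an intermediate filament, stood at 1137 and 2507 CPM in cluster 7 against 52.8 and 214 in cluster 6. Nes stood at 91.8 and 190.4 CPM against 11.4 and 32.4. Neither was particular to cluster 7, since after thinning Vim was found in 84.8% and 97.4% of its cells and in 96.0% and 97.7% of the endothelial cells of cluster 5, and Nes in 34.8% and 50.7% against 56.7% and 59.5% of cluster 5 and 47.1% and 64.1% of the pericytes of cluster 1. The glial transcription factor Sox9 stood at 38.1 and 55.3 CPM against 1.06 and 9.37. Other defining genes were low. Pax6 stood at 6.19 and 8.38 CPM, Gfap, the filament of astrocytes and adult stem cells, at 15.5 and 21.7 CPM, and Hopx, a marker of outer radial glia, at 14.4 and 22.7 CPM. Emx2, a transcription factor of the cortical ventricular zone, stood at 5.15 and 4.88 CPM, which is below its 8.19 and 9.37 CPM in cluster 6. After thinning, Hopx was found more often than in cluster 6, in 8.70% and 8.09% of cells against 0.43% and 0.90%. It was found in 23.5% and 25.6% of the pericytes of cluster 1, so it was not particular to cluster 7. Gfap was found in 4.35% and 5.22% against 0.43% and 1.81% in cluster 6, and Pax6 in 4.35% and 4.44% against 2.99% and 3.17%. After physical injury either gene was found in 2 of 46 cells, against 1 (Gfap) and 7 (Pax6) of 234. The intervals of both genes overlapped those of cluster 6 in both libraries. Of 11 radial glia genes with at least 50 CPM in either cluster after physical injury, 4 were at least 2-fold higher in cluster 7 and 1 was at least 2-fold lower. Over all genes tested 12.9% were higher and 15.3% lower. The median log2 ratio of the list was -0.14 beside -0.15 for all genes tested. After ischemic injury 5 of 10 were higher and 1 lower, where 14.2% of all genes were higher and 19.6% lower. The median was 1.33 beside -0.22.

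OPC genes were abundant in the same cells. Olig1 stood at 1387 and 959 CPM in cluster 7, against 1169 and 942 in cluster 6. Pdgfra stood at 452 and 322 CPM against 869.5 and 689.9, and Sox10 at 247 and 214 against 322 and 327. Ptprz1 stood at 2146 and 1564 CPM against 3794 and 3131. Cspg4, the gene whose promoter drove the label, stood at 156 and 119 CPM against 366 and 269.9. After thinning, 43 of 46 physical injury cells (93.5%, 82.1 to 98.6) and 369 of 383 ischemic injury cells (96.3%, 93.9 to 98.0) had UMIs of both Fabp7 and an OPC gene (Pdgfra, Olig1, Olig2 or Sox10). The same held for 79.9% and 81.0% of cluster 6, and for 2.75% and 6.59% of cluster 4. UMIs of Fabp7 together with a pericyte gene were found in 8.70% and 7.83% of cells, against 9.40% and 8.60% of cluster 6. Cells with transcripts of Fabp7 and of OPC genes at once were thus the rule in cluster 7. The radial glia list was uneven, with Pax6, Gfap, Hopx and Emx2 low and Vim, Nes and Sox9 above cluster 6 in both libraries.

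Vascular markers were low. The pericyte list summed to 39.2 and 52.2 CPM, its most abundant gene Vtn standing at 10.3 and 18.1 CPM, against 115.7 and 127 CPM for Vtn in cluster 6 and 22918 and 21521 CPM in the pericytes of cluster 1. The median cell had 0 pericyte UMIs of 5000. The endothelial list summed to 22.7 and 20.7 CPM, and the smooth muscle list to 14.4 and 48.0 CPM. Other glial and neural lists were not as low. The mature oligodendrocyte list summed to 563 and 369.6 CPM, led by Cnp at 254 and 148 CPM, against 2441 and 2172 CPM in cluster 6. The astrocyte list summed to 271 and 183 CPM, led by the glutamate transporter Slc1a2 at 144 and 84.1 CPM, against 493 and 375 CPM. The neuroblast list summed to 735 and 738 CPM, against 829 and 786 CPM, led by the transcription factor Sox4 at 327 and 291 CPM, while Dcx, the microtubule protein of neuroblasts, stood at 25.8 and 8.45 CPM against 59.7 and 57.2.

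**Figure D2:**
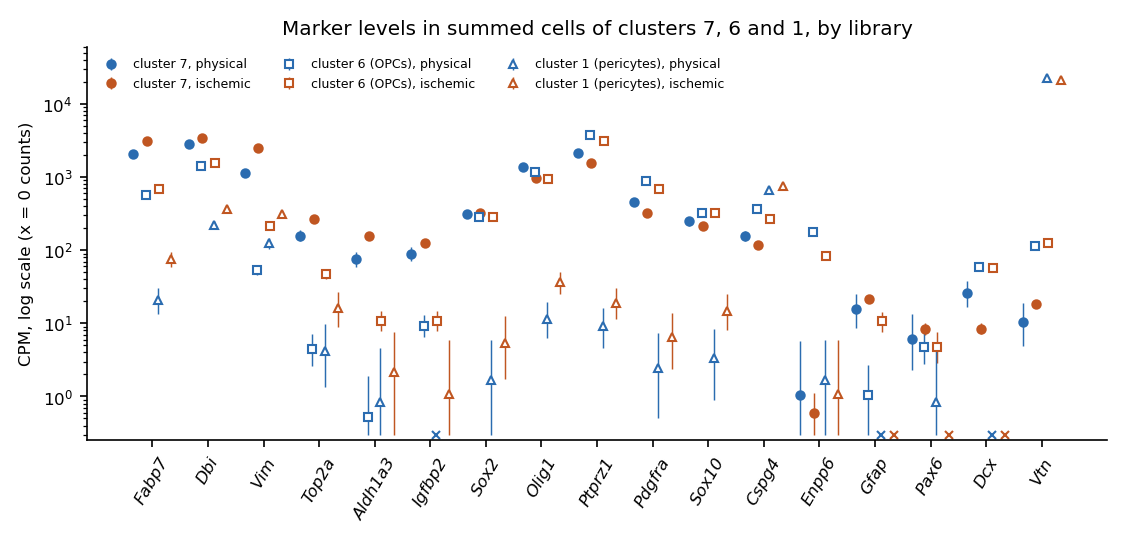
CPM (log scale) of 17 genes in clusters 7 (named RGPs by the study), 6 (OPCs) and 1 (canonical pericytes) after physical and ischemic injury. Bars are 95% exact Poisson intervals and crosses are genes with 0 UMIs. Fabp7, Vim, Aldh1a3 and Igfbp2 lie highest in cluster 7, Sox2 and Olig1 lie close in clusters 7 and 6, and Vtn is high in cluster 1 only.

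Across all genes the distance from the OPCs of cluster 6 was large in both directions. Of 4811 genes with at least 50 CPM in either cluster after physical injury, 621 (12.9%) were at least 2-fold higher and 737 (15.3%) at least 2-fold lower in cluster 7. After ischemic injury 698 (14.2%) of 4905 were higher and 963 (19.6%) lower. With TMM scaling in place of library totals, log2 ratios after ischemic injury moved up by 0.44 and the counts were 1358 higher and 428 lower, so the balance of directions depended on the scaling. In both libraries 464 genes were higher and 565 lower, and 1 gene was past 2-fold in opposite directions, of 4496 genes at 50 CPM in both.

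Among the genes furthest above cluster 6 were genes of cell division, with Ube2c, which marks mitotic cyclins for destruction, at 174 CPM after physical injury against 1.59 in cluster 6, and Cdc20, its partner, at 134 CPM after ischemic injury against 5.32. Others were on a list of reactive glial genes, chosen with earlier results of these data known. Lgals1, a galectin, stood at 1393 and 2728 CPM against 17.7 and 138. S100a10, a small calcium-binding protein, stood at 325 and 820.1 CPM against 3.17 and 45.6. Outside these lists, Hmga2, a chromatin protein of fetal stem cells, stood at 154 and 134 CPM against 0.528 and 58.7, and at 77.7 CPM after physical injury without the cells lacking glial transcripts, 1 of which held 51.7% of its UMIs. All 11 reactive genes tested were higher after physical injury (median log2 ratio 2.91), and 11 of 14 were higher after ischemic injury (median 2.46). Over all genes 12.9% and 14.2% were higher. S100a6 was an exception to a common direction, with log2 ratios of 1.45 and -0.48. Blood genes were also near the top, with S100a8, S100a9 and Camp after physical injury and the hemoglobins Hba-a1, Hba-a2, Hbb-bs and Hbb-bt after ischemic injury. Most of these transcripts lay in the few cells described above, although 1 ischemic injury cell of 41864 UMIs had 209 hemoglobin UMIs beside 325 UMIs of the glial genes.

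Enpp6 and St18 were among the 10 lowest ratios in both libraries. Enpp6, a marker of newly forming oligodendrocytes, stood at 1.03 and 0.594 CPM against 179.9 and 84.3, a log2 ratio of -6.48 and -5.74. St18, a transcription factor of the same stage, stood at 12.4 and 2.44 CPM against 214 and 197. Grm7, a glutamate receptor, stood at 18.6 and 6.01 CPM against 269 and 174, and Unc13c, a protein of synaptic vesicle priming, at 42.3 and 8.65 CPM against 448 and 211. On the list of committed precursors 9 of 10 genes were lower after physical and 10 of 10 after ischemic injury, with medians of -1.55 and -2.20. On the OPC list 4 of 14 and 11 of 14 were lower and none higher, with medians of -0.82 and -1.20. Over all genes 15.3% and 19.6% were lower. TMM scaling moves the ischemic injury log2 ratios up by 0.44, so fewer genes of these lists may pass 2-fold lower under it. Lhfpl3, an abundant OPC gene, had log2 ratios of -0.74 and -1.71.

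Of 13 genes of D cyclins and kinase inhibitors 7 were higher and none lower than in cluster 6 after physical injury (median 1.19), and 6 were higher and 1 lower after ischemic injury (0.88). Ribosome biogenesis genes had 2 of 7 and 2 of 8 higher and none lower (medians 0.84 and 0.69), where 12.9% and 14.2% of all genes were higher, and nothing is read from so few genes. Ccnd1, the cyclin that starts the cycle, stood at 947 and 957 CPM against 393 and 322. Npm1, a nucleolar protein of ribosome assembly, stood at 898 and 1209.7 CPM against 272 and 379. The 79 ribosomal protein genes took 12.5% and 15.1% of all UMIs in cluster 7, against 2.95% and 4.76% in cluster 6, 7.97% and 10.6% in cluster 5, 2.69% and 3.02% in cluster 4 and 4.38% and 6.04% in cluster 1. Their share was alike in cycling (12.6% and 15%) and non-cycling cells (11.8% and 15.3%) of cluster 7. It was the largest of the clusters compared here in both libraries.

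The distance from cluster 6 was present without dividing cells as well. Among non-cycling cells, called as set out below, 498 (10.4%) of 4766 genes were higher and 627 (13.2%) lower after physical injury, and 473 (9.99%) of 4737 were higher and 822 (17.4%) lower after ischemic injury. In both libraries 309 were higher and 376 lower. Lgals1 stood at 1295 and 2641 CPM in non-cycling cells against 19.3 and 133 in those of cluster 6. Tnc, a matrix protein of radial glia and of scars, stood at 623 and 700.5 CPM against 11.3 and 23.9, and at 311 CPM after physical injury without the 1 non-cycling cell that lacked glial UMIs. All 12 reactive genes tested were higher after physical injury and 11 of 15 after ischemic injury.

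Ischemic and physical injury were then compared within cluster 7. Of 4258 genes with at least 50 CPM in either library, 64 (1.5%) were at least 2-fold higher after ischemic injury and 144 (3.38%) at least 2-fold lower, with a median log2 ratio of 0.02 over all genes. TMM scaling moved the log2 ratios by 0.13 and gave 100 higher and 107 lower. Other choices moved the counts further, to 172 and 282 with each cell thinned to 5000 UMIs, 194 and 521 as means over cells and 134 and 243 with the study's filters. Without the cells lacking glial transcripts the counts were 68 (1.6%) and 164 (3.85%) of 4259, of which 56 and 135 were among the first. In cells of at least 5000 UMIs they were 68 (1.6%) and 149 (3.5%) of 4258, of which 62 and 141 were among the first. The difference between the injuries within cluster 7 was thus smaller in number of genes than the difference between clusters 7 and 6.

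Of 14 reactive genes tested 5 were 2-fold higher and 1 lower after ischemic injury, with a median log2 ratio of 0.80. Without the cells lacking glial transcripts 4 were higher and 1 lower, with a median of 0.86. Over all genes 1.5% were higher and 3.38% lower. Lgals3, a galectin of phagocytes and reactive glia, stood at 32.0 CPM after physical and 251 CPM after ischemic injury, a log2 ratio of 2.94 [2.47 to 3.54]. It was found in 8.70% and 29.2% of cells thinned to 5000 UMIs (9.21% and 50% unthinned), and 1 cell held 51.6% of its physical injury UMIs. Vim stood at 1137 and 2507 CPM, a log2 ratio of 1.14 [1.05 to 1.23], and at 1.18 without the cells lacking glial transcripts. S100a10 stood at 325 and 820.1 CPM (1.33), Tnfrsf12a, a receptor of the TNF family, at 47.4 and 107 CPM (1.16), and Nes at 91.8 and 190.4 CPM (1.05). S100a6 stood the other way, at 1529 and 722 CPM (-1.08). Tnc was close to equal at 303 and 261 CPM, and 44.2% of its physical injury UMIs came from 1 cell without glial transcripts. Without such cells it stood at 177 and 261 CPM.

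Aldh1a3, the enzyme of retinoic acid synthesis, was higher after ischemic injury too, at 75.3 and 155 CPM, a log2 ratio of 1.03 [0.71 to 1.40]. Without the cells lacking glial transcripts Aldh1a3 was at 0.97, just under 2-fold. Igfbp3, a binding protein of insulin-like growth factors, stood at 56.7 and 251 CPM, a log2 ratio of 2.12 [1.76 to 2.56], while it stood at 35.4 and 31.4 CPM in cluster 6. Igf1r, the receptor of those factors, was at 57.7 and 58.5 CPM. Pyy, a gut peptide hormone, stood at 7.22 and 67.4 CPM (3.06), but 7 UMIs carried the physical injury value and 7.53% of ischemic injury cells had it. Col12a1, a collagen, stood at 11.3 and 60.4 CPM (2.31), Klk8, a secreted protease, at 15.5 and 74.5 CPM (2.20), and Map1b, a microtubule protein of growing neurites, at 126 and 337 CPM (1.41).

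Of the other markers of these cells, Fabp7 had a log2 ratio of 0.61, Dbi of 0.28, Igfbp2 of 0.51 and Sox2 of 0.03 [-0.14 to 0.20]. Cdca8, a subunit of the complex that guides chromosomes in mitosis, stood at 129.9 and 228 CPM (0.80). The replication histones Hist1h1b (42.3 and 335 CPM, 2.96) and Hist1h3c (9.28 and 53.3 CPM, 2.40) were among the 10 largest ratios, and 13 of the 64 higher genes were on the division lists. The S phase, G2/M phase and held-out division lists, described below, had 22, 36 and 20 genes tested here. Over all genes 1.5% were higher. The share of cycling cells, given below, moved with these genes. Among cycling cells alone Hist1h1b had a log2 ratio of 2.59, and Top2a stood at 260.2 and 309 CPM, a log2 ratio of 0.25, against 0.74 over all cells.

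The genes with the lowest ratios rested in part on single cells. The neutrophil genes S100a9 (205 CPM after physical and 0 after ischemic injury), S100a8 (167 and 0.132) and Camp (69.1 and 0.264) were at 0, 1.08 and 1.08 CPM after physical injury once the cells lacking glial transcripts were left out. Il11, a cytokine, stood at 63.9 and 0.858 CPM, and 96.8% of its physical injury UMIs came from 1 deep cell without glial UMIs that also held 130 Tnc and 69 Vim UMIs. Without such cells Il11 had 0 UMIs after physical injury. Car2, a carbonic anhydrase, stood at 186 and 13.0 CPM with 82.8% from 1 cell, and Nupr1, a stress gene, at 51.5 and 7.52 CPM with 52.0% from 1 cell. Among the higher genes the hemoglobin Hba-a1 stood at 18.6 and 209.8 CPM, of which 98.5% came from 1 ischemic injury cell. The values of these genes thus depended on 1 or a few cells to unequal degrees.

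Other genes were lower after ischemic injury as well. Nrxn3, a presynaptic adhesion molecule, stood at 1108 CPM (1043 to 1176) after physical and 262 CPM (254 to 270.0) after ischemic injury, a log2 ratio of -2.08, and it stood at 1604 and 1736 CPM in cluster 6. Gpc5, a heparan sulfate proteoglycan, stood at 597 and 126 CPM (-2.23), with 2903 and 1414 CPM in cluster 6. Nrg3, a ligand of ErbB receptors, stood at 277 and 56.0 CPM (-2.29), and Nrg1 at 141 and 34.8 CPM (-1.99). Edil3, an integrin ligand, stood at 229 and 41.4 CPM (-2.44), against 441 and 569 CPM in cluster 6. Cdkn1c, an inhibitor of cyclin-dependent kinases, stood at 61.9 and 9.63 CPM (-2.56), against 85.6 and 156 CPM in cluster 6. Gpr158, a G protein-coupled receptor, stood at 53.6 and 10.4 CPM (-2.26), against 313 and 187 CPM in cluster 6. Nrxn3, Edil3 and Cdkn1c were not lower after ischemic injury in the OPCs, and whether the clusters differed in this was not tested.

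Most OPC genes stood below 0 without passing 2-fold. Olig1 stood at 1387 and 959 CPM (-0.53), Olig2 at 475 and 320.4 CPM (-0.57), Pdgfra at 452 and 322 CPM (-0.49) and Ptprz1 at 2146 and 1564 CPM (-0.46). Lhfpl3, a tetraspan membrane protein of OPCs, stood at 3050.4 and 1529 CPM (-1.0, just under 2-fold), against -0.04 in cluster 6. Matn4, a matrix protein, had the largest difference of the list at 139 and 47.9 CPM (-1.52). Over all genes 3.38% were 2-fold lower, and 3.85% without the cells lacking glial transcripts. Of 14 OPC genes tested none was 2-fold higher and 3 were 2-fold lower, with a median of -0.55, and 4 were lower without the cells lacking glial transcripts (median -0.60). All 14 had a ratio below 0, from -0.11 for Sox6 to -1.52 for Matn4, although the 0.13 that TMM scaling adds would put Sox6 above 0. The committed precursor list had 3 of 8 lower and a median of -0.73, led by the sialidase Neu4 (75.3 and 18.4 CPM, -1.97) and the myelin gene Bcas1 (704 and 278 CPM, -1.34).

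Over all genes 1.5% were higher and 3.38% lower after ischemic injury. Of 12 immediate early genes, which respond to handling as well as to stimuli, none was higher and 5 were lower, with a median of -0.85. In cycling cells 2 of 9 were lower, beside 2.39% of all genes. Fos stood at 2086 and 988 CPM (-1.08) and Egr1 at 396 and 137 CPM (-1.53). In cluster 6 Fos stood at 2414 and 2466 CPM. In the interferon list 3 of 7 were lower, namely Isg15 (55.7 and 14.2 CPM), Bst2 (102 and 32.8 CPM) and Psmb8 (63.9 and 26.4 CPM), with a median of -0.79. No gene was past 2-fold among 8 fatty acid (median 0.25), 8 cholesterol (-0.38), 4 hypoxia (0.05), 5 Notch (-0.05), 5 growth factor receptor (-0.16) and 5 neuroblast genes (-0.11). In non-cycling cells 1 of 6 hypoxia genes was higher (median 0.67, against -0.22 in cycling cells). There 2 of 8 cholesterol (-0.69) and 2 of 6 Notch genes (-0.54) were lower, and none in the other lists was past 2-fold. Over all genes in non-cycling cells 2.79% were higher and 5.97% lower. Of 16 neurogenesis genes that the study chose on these cells, 3 were higher (Vim, Map1b and Vgf), with a median of -0.06.

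**Figure D3:**
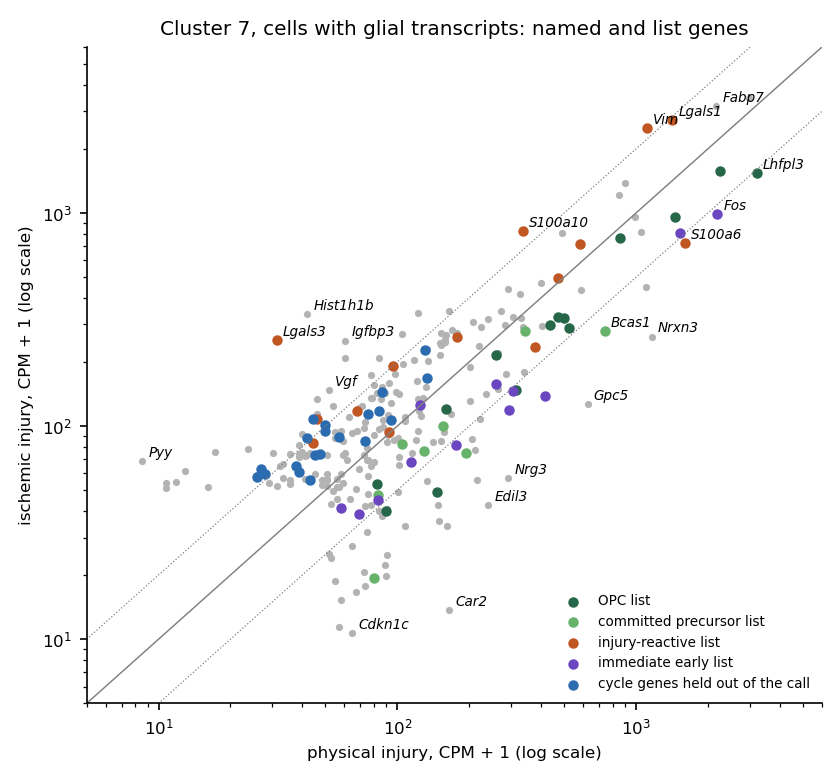
CPM plus 1 after physical injury against CPM plus 1 after ischemic injury (both log scales), in cluster 7 cells with glial transcripts. Only named genes and genes of the lists that reached 50 CPM in either library are drawn, not all genes tested. Dotted lines mark 2-fold differences and colors mark gene lists. OPC genes and most immediate early genes lie below the diagonal, on the side of physical injury, and Vim, Lgals3 and S100a10 lie above it.

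The differences between injuries were looked at within each cycling class, since the classes took unequal shares of the libraries. In cycling cells 70 (1.62%) of 4313 genes were 2-fold higher after ischemic injury and 103 (2.39%) lower, and in non-cycling cells 119 (2.79%) of 4272 were higher and 255 (5.97%) lower. Of the 64 genes higher over all cells, 41 were also higher in cycling and 39 in non-cycling cells, with 26 in both. Of the 144 lower genes the numbers were 92, 101 and 60. Vim had log2 ratios of 1.20 in cycling and 1.23 in non-cycling cells, Igfbp3 of 1.69 and 3.09, Lgals3 of 2.41 and 4.15, and Nrxn3 of -1.65 and -1.95. The OPC median was -0.57 and -0.63 and the immediate early median -0.63 and -1.13. These directions were the same in both classes. After physical injury, however, Lgals3 was found in 1 and Igfbp3 in 2 of the 20 non-cycling cells thinned to 5000 UMIs. The size of their non-cycling ratios is therefore uncertain. Aldh1a3 had log2 ratios of 1.51 in cycling and 0.74 in non-cycling cells, and Nes of 0.49 and 2.55.

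The OPCs of cluster 6 gave the background of the same contrast in the same libraries. Of 4552 genes 58 (1.27%) were 2-fold higher after ischemic injury and 18 (0.395%) lower. Of 3589 genes at 50 CPM in both clusters, 2 were higher in both, 5 lower in both and 6 past 2-fold in opposite directions. Vim was higher in cluster 6 too, at 52.8 and 214 CPM (2.00), and 5 of 7 reactive genes were higher with a median of 1.60. The OPC list had a median of -0.29.

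Cycling cells were called from the sum of UMIs over Seurat's lists of S phase (43 genes) and G2/M phase (54 genes) after thinning to 5000 UMIs. A cell with more than 15 such UMIs was called cycling, the number that at most 1% of the mature oligodendrocytes of cluster 4 exceeded. The call was made in 26 of 46 physical injury cells (56.5%, 41.1 to 71.1) and in 321 of 383 ischemic injury cells (83.8%, 79.7 to 87.4). In cluster 6 it was made in 16 of 234 (6.84%) and 35 of 221 cells (15.8%). The median cell of cluster 7 had 17.5 cycle UMIs (quartiles 11 and 38.75) after physical and 49 (22 and 81) after ischemic injury, against 8 and 9 in cluster 6. The 30 and 55 cells under 5000 UMIs had no call, and 6 and 30 cells had 14 to 17 such UMIs, the 2 values on either side of the cut, so the classes are ranges of one score and not types. Among cycling cells 20 of 26 and 281 of 321 had more G2/M than S phase UMIs.

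**Figure D4:**
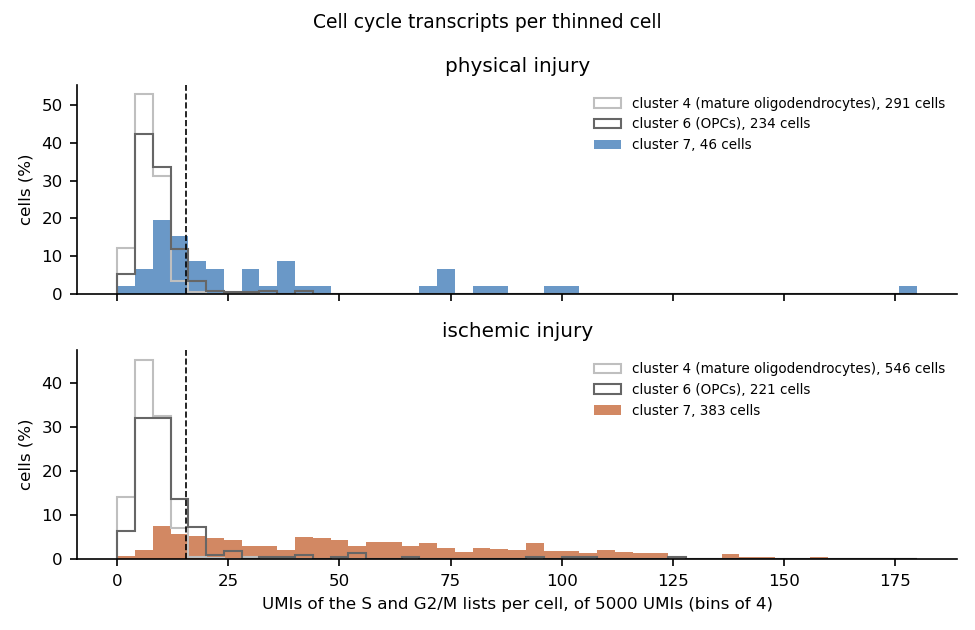
Percent of each cluster's cells by UMIs of the S and G2/M lists per 5000 UMIs (bins of 4), in both libraries. Clusters 4, 6 and 7 are shown, and the dashed line is at the cut of 15. Clusters 4 and 6 lie mostly left of the line, and cluster 7 extends far to the right of it.

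All genes were then compared between cycling and non-cycling cells, and those of the call lists had to differ. After physical injury 321 (7.01%) of 4579 genes were at least 2-fold higher in cycling cells and 270 (5.9%) lower, from 549548 and 394622 UMIs. After ischemic injury 198 (4.78%) of 4144 were higher and 64 (1.54%) lower, from 12891658 and 2161333 UMIs. Leaving out the call lists, 103 genes were higher and 24 lower in both libraries, and none of 3844 was past 2-fold in opposite directions.

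The genes with the largest ratios in cycling cells included genes of mitosis and of DNA replication. Ccnb1, the cyclin of mitotic entry, had no UMI in the non-cycling cells after physical injury and 126 CPM in the cycling ones, at least 16.5-fold higher against a floor of 3 counts over the group. After ischemic injury it stood at 132 and 2.31 CPM. Ccna2, the cyclin of S and G2 phase, stood at 69.2 and 0 CPM (at least 9.10-fold) and at 101 and 0.463 CPM. Spc25, a kinetochore subunit, stood at 91.0 and 0 CPM (at least 12-fold) and at 101 and 4.16 CPM. Racgap1, which acts at the cleavage furrow, stood at 138 and 5.07 CPM (log2 ratio 4.52) and at 165 and 12 CPM (3.67), and Prc1, which bundles the spindle midzone, at 206 and 15.2 CPM (3.67) and at 259 and 29.6 CPM (3.08). Kif4, a chromosome-bound motor, stood at 61.9 and 2.53 CPM and at 69.2 and 1.39 CPM. Kif15, a spindle motor, stood at 78.3 and 0 CPM and at 84.9 and 1.39 CPM, Aspm, a spindle pole protein, at 61.9 and 0 CPM and at 82.5 and 1.85 CPM, and Sgo2a, which guards centromere cohesion, at 52.8 and 0 CPM and at 61.6 and 0 CPM. Knl1, a kinetochore scaffold, stood at 118 and 5.07 CPM and at 97.2 and 0.925 CPM. Pclaf, a partner of the replication clamp, stood at 258 and 15.2 CPM and at 397 and 19.0 CPM. Of a list of division genes kept out of the call, 18 of 19 were higher after physical and 22 of 22 after ischemic injury, with medians of 3.67 and 3.90. Over all genes 7.01% and 4.78% were higher. The division genes accompany the call lists through the cycle, so the count of these genes describes the call and is not independent of it.

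Genes lower in cycling cells had many functions. Tnc stood at 87.3 CPM in cycling and 623 CPM in non-cycling cells after physical injury, a log2 ratio of -2.82 [-3.31 to -2.38], and at 187 and 700.5 CPM after ischemic injury (-1.90). Without the cells lacking glial transcripts it stood at 88.5 and 311 CPM after physical injury, a log2 ratio of -1.80 [-2.33 to -1.31], since 1 such non-cycling cell held 130 Tnc UMIs. Fhit, a hydrolase at a fragile site, stood at 65.5 and 408 CPM and at 33.9 and 182 CPM, Mgmt, a DNA repair methyltransferase, at 7.28 and 55.8 CPM and at 15.3 and 75.4 CPM, and Ptgds, which makes prostaglandin D, at 14.6 and 165 CPM and at 26.7 and 92.1 CPM. A single cell held 37.0% of the physical injury UMIs of Mgmt and 68.2% of those of Ptgds. Nkain2, which binds the sodium pump, stood at 12.7 and 215 CPM and at 32.7 and 139 CPM, with 48.9% of its physical injury UMIs in 1 cell. Col4a6, a basement membrane collagen, stood at 0 and 58.3 CPM and at 46.3 and 128 CPM, with 69.6% of its physical injury UMIs in 1 cell. Abca1, a cholesterol exporter, stood at 18.2 and 81.1 CPM and at 36.5 and 102 CPM. Vgf, a secreted neuropeptide precursor, stood at 10.9 and 104 CPM and at 119.6 and 300.7 CPM, with 55.3% of its physical injury UMIs in 1 cell. Ccng1, a target of p53, stood at 40.0 and 88.7 CPM and at 63.6 and 133 CPM, and Mxd4, which opposes Myc, at 38.2 and 98.8 CPM and at 34.4 and 105 CPM.

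OPC genes were near equal in the cycling and non-cycling cells. No OPC gene was past 2-fold in either library, with medians of -0.09 and 0.00. Olig1 had log2 ratios of 0.13 and -0.03, and Pdgfra of 0.36 and 0.28. Radial glia genes had medians of -0.13 and 0.00. After physical injury 1 of 9 was higher (Nes) and 1 lower (Tnc), where 7.01% of all genes were higher and 5.9% lower. After ischemic injury 1 of 10 was higher (Hes5, a Notch target, at 87.2 and 20.4 CPM) and 1 lower (Tnc), beside 4.78% and 1.54% of all genes. Nothing is read about the list from these counts. Fabp7 stood at 2531 and 1508 CPM after physical injury (0.75) and at 3233 and 2679 CPM after ischemic injury (0.27), and Sox2 had log2 ratios of -0.13 and 0.11. UMIs of both Fabp7 and an OPC gene were found in 25 of 26 cycling and 18 of 20 non-cycling cells after physical injury, and in 314 of 321 (97.8%) and 55 of 62 (88.7%) after ischemic injury. Cells with both kinds of transcript were thus not confined to dividing cells.

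Reactive genes had medians below 0 in cycling against non-cycling cells. After physical injury 5 of 13 were lower and 1 higher in cycling cells (median -0.93), where 5.9% of all genes were lower and 7.01% higher. After ischemic injury 2 of 14 were lower and none higher (median -0.43), beside 1.54% and 4.78% of all genes. With a cut that 5% of cluster 4 may pass, the physical injury median was 0.073, so its direction depended on the cut. S100a6 stood at 1134 and 2167 CPM and at 625 and 1279 CPM, whereas Lgals1 had log2 ratios of 0.17 and 0.05. Nes stood at 135 and 30.4 CPM after physical injury and was near equal, at 189.5 and 183 CPM, after ischemic injury. Ribosome biogenesis genes had medians of 0.59 and 0.56, and no direction is read from so few genes. The median cycling and non-cycling cell had 9.5 and 8.5 UMIs of this list per 5000 after physical injury. After ischemic injury the medians per cell were 13 and 9.5. Nop58, a nucleolar protein, stood at 107 and 88.7 CPM and at 154 and 75 CPM. The inhibitor Cdkn1a had log2 ratios of 0.52 and -0.90, and Cdkn2c, an inhibitor of the cyclin D kinases, stood at 91.0 and 32.9 CPM and at 66.5 and 33.3 CPM.

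**Figure D5:**
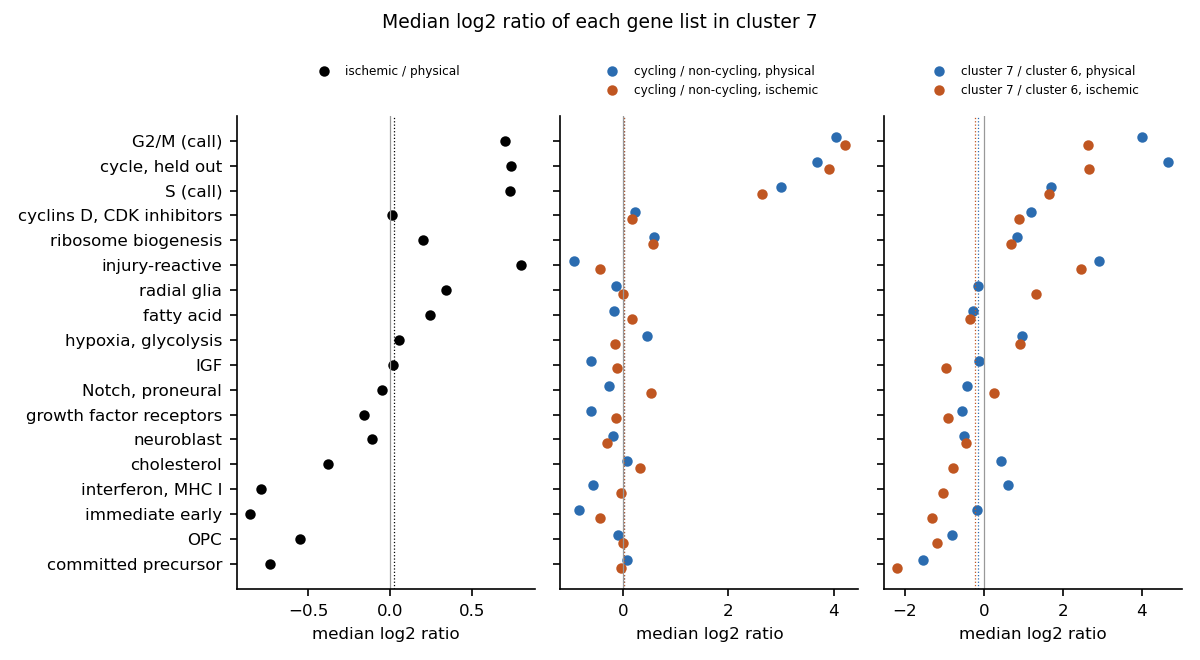
Median log2 ratio of each gene list in cluster 7 for ischemic against physical injury (left), cycling against non-cycling cells (middle) and cluster 7 against cluster 6 (right), the last pair in each library. Dotted lines are medians over all genes tested. OPC genes lie left of the line for injury (-0.55) and near it for cycling (-0.09 and 0.00), and the division lists lie far to the right for cycling.

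Promoters of the division genes are shown because these genes moved together between the classes. The 150 bases from 120 before to 30 after the start of transcription, read from RefSeq on GRCm38.p6, are given for 4 division genes. The letters run 5′ to 3′ on the gene's strand. These genes were kept out of the call and hold both motifs in this window. They were chosen by level in cycling cells, highest first, and not all chromosomes were considered. Capitals mark the cell cycle homology region (TTTGAA) and the CCAAT box, which is written ATTGG where it lies on the opposite strand.
Prc1 chr7:80294331-80294480 (+ strand): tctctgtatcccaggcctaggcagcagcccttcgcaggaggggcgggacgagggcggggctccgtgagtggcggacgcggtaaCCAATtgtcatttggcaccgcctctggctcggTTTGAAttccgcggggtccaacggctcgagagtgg
Racgap1 chr15:99651627-99651776 (- strand): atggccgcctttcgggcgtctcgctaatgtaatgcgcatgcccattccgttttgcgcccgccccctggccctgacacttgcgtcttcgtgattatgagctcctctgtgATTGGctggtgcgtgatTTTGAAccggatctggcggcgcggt
Spc25 chr2:69206184-69206333 (- strand): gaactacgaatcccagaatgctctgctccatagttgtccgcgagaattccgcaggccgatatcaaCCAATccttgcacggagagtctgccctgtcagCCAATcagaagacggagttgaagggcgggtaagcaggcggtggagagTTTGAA
Kif4 chrX:100625945-100626094 (+ strand): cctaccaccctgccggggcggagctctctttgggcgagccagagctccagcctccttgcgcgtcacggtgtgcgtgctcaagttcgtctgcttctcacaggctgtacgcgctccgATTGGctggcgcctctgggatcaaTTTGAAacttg

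The same letters were searched on both strands from 250 bases before to 50 after the start in all RefSeq promoters. A gene was counted where any of its promoters held the letters. TTTGAA was found in 33 of 47 G2/M list genes with a promoter (70.2%), in 5 of 31 S list genes (16.1%), in 12 of 26 division genes kept out of the call (46.2%) and in 20.2% of all 27025 genes with a promoter. CCAAT was found in 76.6%, 67.7% and 69.2% of these lists and in 41.1% of all these genes. Both were found in 57.4% of G2/M genes, 9.68% of S genes, 38.5% of the held-out genes and 8.97% of all genes with a promoter. Of 10 OPC genes with a promoter, 2 had TTTGAA (20%). A match of letters is a description of the window and not a site in use.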

How the data were processed

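Per the submitters' processing notes the authors aligned reads to mm10 and produced the deposited UMI counts, not normalized, with Cell Ranger 7.0.0, and the deposited percent of mitochondrial transcripts was computed by the authors in Seurat. The paper gives a range of Cell Ranger versions that ends at 7.0.0. Cluster numbers are those of the authors' integrated object. All deposited cells were kept, and the study's filters were applied as an alternative. Totals per cell, recomputed over 22833 genes, equalled the deposited totals in all 10455 cells.

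Counts were summed by cluster and library. A gene was tested for size where it reached 50 CPM in the higher group and was counted as higher or lower from 2-fold, with a pseudocount of 1 CPM. A group at 0 was set to 3 counts over the group for lower bounds. With 1 library per condition no p-value was computed. The genes named were taken from the 10 largest ratios each way of each comparison, not all of which are printed, and from 28 lists holding 423 genes, of which 6 were not in the table. Left out of the ranking were mitochondrial, Y-linked and ribosomal RNA-derived genes, Xist and Tsix, and for cycling the call lists. The cells and lists were chosen with earlier results of these data known, and the glial and blood lists that set cells aside were chosen after the counts were seen. Neither the methods nor the labels mention doublets. Scrublet called 12 and 3 cells, so the 53 and 103 cells with the highest scores were removed as an alternative, of which 1 and 3 were in cluster 7. The other alternatives were TMM scaling (edgeR 4.0.16, R 4.3.3), mean over cells, other minima and pseudocounts, other thinning depths and cuts, and scanpy phases. The steps were tested on simulated data. Results for some genes are not reported here. Software was Python 3.11.15 with matplotlib 3.10.9, scanpy 1.11.5, pandas 2.3.3, scipy 1.17.1 and numpy 2.4.6.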

Additional observations from a re-analysis of the deposited data

Results flagged for a closer look

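The 6 genes named next were at least 2-fold lower after ischemic injury in cluster 7 and at least 2-fold higher in the OPCs of cluster 6, and the difference between the clusters was not tested. In cluster 7 the log2 ratios of ischemic against physical injury were -1.23 for Ptgds (68.2% of its physical injury UMIs in 1 cell), -1.75 for Igfbp7 (73.5% in 1 cell, and 0.49 without the cells lacking glial transcripts), -1.19 for Adamts9, -1.98 for Hpgd, -1.39 for Fstl4 and -1.74 for C4b.

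Cells outside the comparisons carried signal of the genes described here. The 17 naïve cells of cluster 7 held 29818 UMIs with a median of 987 per cell, and pericyte genes were found in most of them, with 168 UMIs of Vtn in 14 cells and 103 of Rgs5 in 16 cells. The hemoglobin Hbb-bs had 644 UMIs, all in 1 cell. Fabp7 had 17 UMIs in 1 of these cells, and Olig1 had 16 in 2. In the Tbx18 line, Olig1 was found in cells of that line's cluster 6, with 126 UMIs in 10 of 14 cells after physical injury and 79 UMIs in 4 of 8 cells after ischemic injury.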

How the results depend on the processing

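No paired analysis was possible because each condition had 1 library with no shared replicate, and for the same reason no replicate could be left out. Counting intervals do not cover animals or sorts, and shares after physical injury rest on 46 cells with 5000 UMIs. Of 132 counts and shares under alternatives, 86 stayed within 1.5 times the reported value or its interval. Of 892 list medians, 753 kept to their spread and 137 moved. A change of sign was counted apart only where the reported median was 0.5 or more in size, as 447 were. Smaller medians that changed sign are among those that kept to their spread or moved. Of the larger medians 2 changed sign. They were the IGF list in cycling cells after physical injury (0.33 with the study's filters, against -0.61) and the reactive list in the same comparison (0.073 with a 5% cut, against -0.93). The cause was not tested.

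For ischemic against physical injury, the counts of higher and lower genes were 100 and 107 with TMM, 194 and 521 as means over cells, 134 and 243 with the study's filters, 139 and 314 from 20 CPM, 838 and 1434 with no minimum, 172 and 282 after thinning to 5000 UMIs, and 119 and 255 in non-cycling cells. For cycling against non-cycling cells after physical injury they were 584 and 451 with the study's filters, 897 and 720 from 20 CPM, and 3044 and 2529 with no minimum, with 430 lower under the 5% cut and 479 lower with scanpy phases. After ischemic injury they were 411 and 142 from 20 CPM and 1015 and 557 with no minimum, with 39 lower after thinning to 2000 UMIs. Against cluster 6 they were, after physical injury, 1276 and 1348 as means over cells and 2356 and 2742 with no minimum, with 1156 lower from 20 CPM. After ischemic injury they were 1358 and 428 with TMM and 1329 and 2853 with no minimum, with 1466 lower from 20 CPM. Lower minima add genes with few UMIs by construction. The share of cluster 7 was 2.03% after physical injury without the cells lacking glial transcripts, and after ischemic injury 15.7% of cells with 5000 UMIs and 8.28% with the study's filters, which remove the deepest cells. Cycling shares were 40.4% and 73.0% at 2000 UMIs, 88.3% after ischemic injury with the 5% cut and 77.6% unthinned. Cells with Fabp7 and OPC genes were 78.7% and 82.8% at 2000 UMIs, and 67.1% after physical injury unthinned. In each of these alternatives the ischemic injury share stood above the physical injury one where both are given.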

Other observations

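The libraries pooled male and female mice, so transcripts of the Y chromosome and of Xist reflect the sex of the mice that the cells came from. This was looked at after the values were seen. Among cells with at least 5000 UMIs and transcripts of one kind only, 17 of 39 cluster 7 cells (43.6%, 27.8 to 60.4) carried Y-linked transcripts after physical injury, against 26.3% (24.1 to 28.7) of the other cells of that library and 31.1% of cluster 6. After ischemic injury it was 239 cells against 79 with Xist (75.2%, 70.0 to 79.8), against 55.4% (53.1 to 57.7) of the other cells and 56.1% of cluster 6. In the ischemic injury library 15 of 383 cluster 7 cells had both kinds of transcript, as did 75 of 2051 other cells. In the physical injury library none of 46 cluster 7 cells and 38 of 1640 other cells did.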
